A study of Venturia canescens with 18 samples.

Results

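Head RNA of Venturia canescens females courted by a brother was compared with head RNA of females kept without a male. V. canescens is a parasitoid wasp, and the study's stock came from wild wasps of southern France that were kept on the flour moth Ephestia kuehniella. Each virgin female, newly emerged, spent up to 10 min alone in a box (the isolated control) or in a box with her brother, who is an incompatible mate. Heads were pooled, and the protocols give 10 heads per condition without saying whether each replicate had that number or came from a family of its own. The comparison takes 12 of the 18 libraries of the series, which are 3 brother pools and 3 isolated pools with 2 technical replicates of each, and they were chosen by the condition in the labels. The remaining 6 libraries, from females courted by an unrelated male, entered no test here. Since nothing says that the pools came from separate cultures, p-values reflect only how far these pools spread, which may be technical.

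In wasps, as in other Hymenoptera, fertilised eggs normally become daughters and unfertilised eggs become sons. In V. canescens sex depends on the alleles at a sex-determining locus, and a female who mates with a brother risks homozygous offspring, which develop as diploid males in place of daughters. Females that can recognise and refuse a brother avoid this cost, and recognition in wasps relies largely on odours sensed with the antennae and processed in the brain, both of which belong to the head. The loci in the deposited table carry XLOC identifiers that the table pairs with no gene names, and 0 of them occur in the species' RefSeq gene table. Loci are therefore described by level and change, no gene group could be tested, and the head label could not be checked against marker genes. For the same reason no sequence is given.

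Each pool is the sum of its technical replicates and held between 62341897 and 84765233 counts, with brother pool 1 inside that range at 73839115. Brother pool 1 stood apart by its levels. Its score was 95.5 on the leading principal component of log2 CPM (counts scaled to library size), a component with 49.3% of the variance, and the other 5 pools ranged from -32.2 to -1.34. At 1228 loci its level exceeded that of each other pool by more than 2-fold, and at 216 loci it was under each of them by more than 2-fold, whereas for the other pools such loci numbered 4 to 43 and 42 to 149. The 100 loci with the highest mean level over the 6 pools took 27.4% of its counts, against 29.8% to 32.2% in the other pools. Isolated pools alone had a common biological coefficient of variation of 12.7%, brother pools 2 and 3 of 15.6%, and all 3 brother pools of 40.3%. The labels say nothing that sets this pool apart, and the reason for it was not tested, so the comparison was fitted with it and without it.

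The comparison asks which transcripts in a female's head differ after courtship by an incompatible male. With all 6 pools, 61 of 15214 loci tested passed an adjusted p of 0.05 in edgeR's quasi-likelihood test, or 0.401% of the loci. Nearly all were lower after courtship by a brother, with 58 lower (0.381%) and 3 higher (0.0197%). Of the 58, 47 were lower by over 8-fold, 6 by 2- to 8-fold and 5 by 1.5- to 2-fold. Without brother pool 1 the same test called 1845 of 15260 loci (12.1%), with 849 higher (5.56%) and 996 lower (6.53%). All 61 loci of the first fit were among them with the same direction. The pools held different females, so in each result below courtship and a difference between the females used cannot be told apart, and neither can fewer cells of a kind and less RNA per cell.

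**Figure D1:**
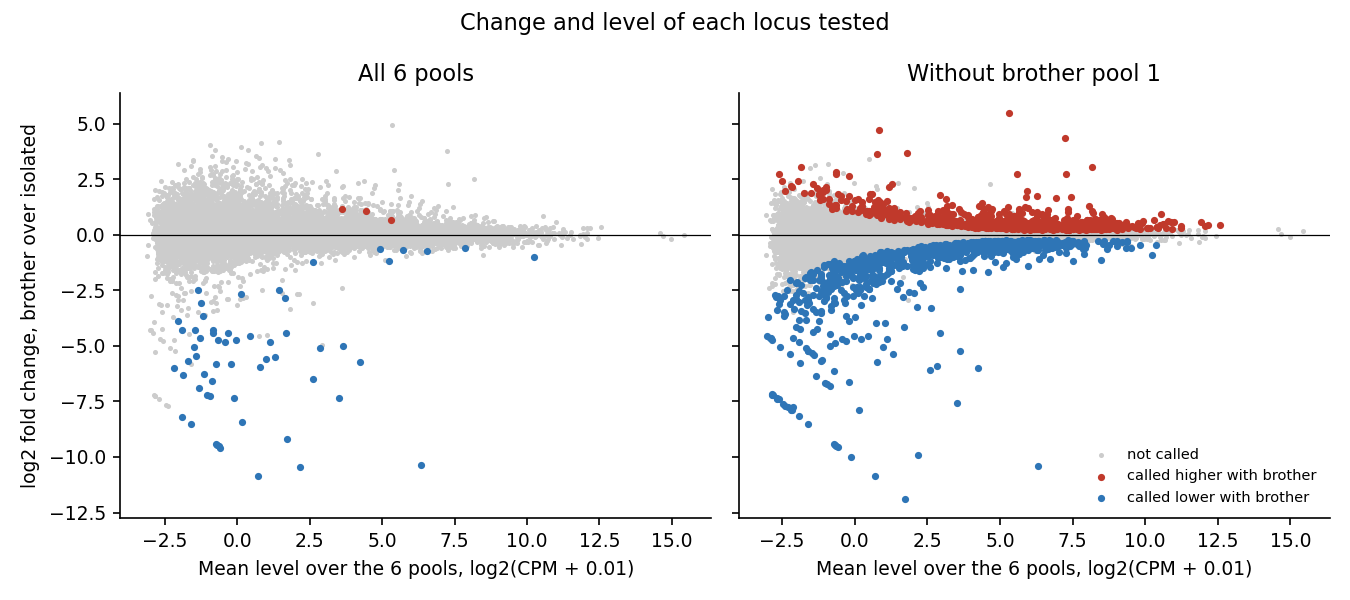
Log2 fold change of brother over isolated pools (vertical axis) against the mean level over the 6 pools as log2(CPM + 0.01) (horizontal axis), for each locus tested with all 6 pools (left) and, where also tested, without brother pool 1 (right). Grey points were not called, red points were called higher and blue points lower at an adjusted p under 0.05. With 6 pools the 58 lower calls reach far below the rest while 3 loci are called higher, and without brother pool 1 calls spread along both edges of the cloud.

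The calls with 6 pools were weighted towards near-absence in brother pools. In the 47 that were over 8-fold lower, isolated pools had means of 0.412 to 160 CPM with a median of 1.22 CPM. The highest value in any brother pool was 1.02 CPM. Of the 47, 7 had no count in any brother pool and 20 had at most 3 counts over the 3 brother pools, while the fewest counts in any isolated pool was 20. With the loci that had no brother count taken at 3 counts over the group, the levels were lower by 8.56- to 1874-fold, with a median of 51.4-fold. Among isolated pools the highest was a median of 1.35 times and at most 2.18 times the lowest at these loci, against a median of 1.21 times over all loci tested.

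Summed over the 47 loci, isolated pools 1 to 3 stood at 342, 320 and 376 CPM. Brother pools 1 to 3 stood at 4.32, 2.52 and 4.44 CPM. The median locus was at 1.64%, 1.19% and 1.59% of the isolated mean in brother pools 1 to 3, so brother pool 1 was about as low as its fellows. Since the 47 were chosen from these pools, brother pool 1 among them, the gap and the low level of brother pool 1 are both descriptions. The groups did not overlap at any of the 58 lower and 3 higher loci called, and such separation was common, at 13.6% of all loci tested for brother pools below and 9.72% for brother pools above. In the unrelated pools, which had no part in choosing these loci, the sums were 116, 431 and 308 CPM. The median locus stood at 26.8% of the isolated mean in unrelated pool 1, at 126% in pool 2 and at 96.3% in pool 3, so unrelated pool 1 was lower than its fellows but far above the brother pools.

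**Figure D2:**
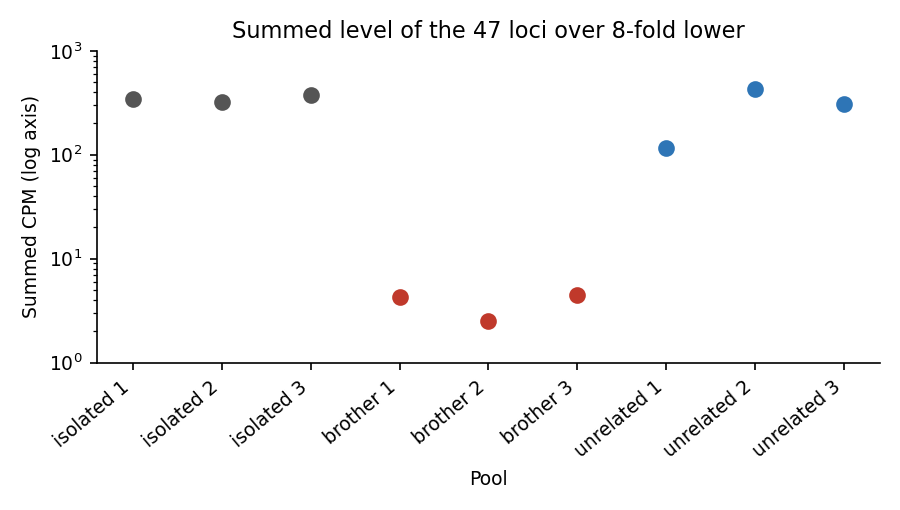
Summed level in CPM (vertical log axis) of the 47 loci called over 8-fold lower with 6 pools, in each of 9 pools (horizontal axis), with isolated pools in grey, brother pools in red and unrelated pools in blue. Brother pools lie between 2.52 and 4.44 CPM, isolated pools between 320 and 376 CPM, and unrelated pools between 116 and 431 CPM.

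The opposite pattern was not found at the limits used. At 0.3 CPM or more in every isolated pool, 22 loci had at most 3 counts over the brother pools, whereas 0 loci at 0.3 CPM or more in every brother pool had at most 3 counts over the isolated pools, a description with limits chosen after seeing the data. Without brother pool 1, 108 loci were called lower by over 8-fold and 9 were called higher by over 8-fold. The median level of the 9 higher loci was 0.602, 0.193 and 0.323 CPM in isolated pools 1 to 3, whereas brother pools 2 and 3 had medians of 3.51 and 5.36 CPM. In brother pool 1 it was 0.365 CPM, inside the isolated range. Summed over the 9, isolated pools stood at 75.6 to 175.7 CPM and brother pool 1 at 71.6 CPM, just below them. Brother pools 2 and 3 stood at 1717 and 798 CPM by that sum. For the 108 lower loci the median was 0.716, 0.682 and 0.700 CPM in isolated pools, 0.0155 and 0.0152 CPM in brother pools 2 and 3, and 0.0378 CPM in brother pool 1. Summed over the 108, isolated pools stood at 384 to 448 CPM, and brother pools 1 to 3 at 20.2, 6.925 and 9.97 CPM. Brother pool 1 was not used to choose either set. Its median was low with the other brother pools at the 108, though above theirs, but inside the isolated range at the 9.

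XLOC_010657 was the most abundant of the 47. It stood at 153, 149 and 177 CPM in isolated pools 1 to 3 and at 0.126, 0.17 and 0.0606 CPM in brother pools 1 to 3. These values rest on 9427, 13138 and 13170 counts against 10, 11 and 4 counts, so every isolated pool lay far above every brother pool. The rule that chose each locus named here required brother and isolated pools that did not overlap. The summed counts put it 1342-fold higher in isolated pools, with an exact 95% interval of 909 to 2074 that covers counting error only. The log2 fold change was -10.37 ± 0.23 (SE; edgeR adjusted p = 2.25e-05) with 6 pools and -10.42 ± 0.22 (edgeR adjusted p = 1.47e-07) without brother pool 1. Unrelated pools 1 to 3 held 64.6, 177 and 125.4 CPM of XLOC_010657, and unrelated pools 1 and 3 were below all isolated pools. XLOC_010657 was past the threshold under all 19 alternatives tried on the 6 pools, with edgeR, limma and DESeq2 adjusted p from 5.81e-231 to 0.00657.

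Below 8-fold, XLOC_007917 had the smallest adjusted p among the lower loci in the fit of 6 pools, though not in the fit without brother pool 1. It stood at 4.91, 3.15 and 5.84 CPM in isolated pools and at 0.794, 0.927 and 0.758 CPM in brother pools. The lowest isolated pool was still over 3 times the highest brother pool, and isolated pools varied more (SD 1.37 CPM) than brother pools (SD 0.0895 CPM; n = 3 each). The log2 fold change was -2.49 ± 0.29 (SE; edgeR adjusted p = 0.0337), and without brother pool 1 it was -2.45 ± 0.30 (edgeR adjusted p = 0.00288). Unrelated pools 1 to 3 lay at 2.04, 4.43 and 2.87 CPM, above all brother pools, and unrelated pools 1 and 3 lay below all isolated pools. Under 19 alternatives on the 6 pools its direction held, but its call was lost in 8, with edgeR, limma and DESeq2 adjusted p from 9.47e-12 to 0.363. Among the 8 were the fits without isolated pools 1, 2 and 3, where the edgeR adjusted p was 0.234, 0.0807 and 0.227, and those without brother pools 2 and 3, where it was 0.089 and 0.199.

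The remaining lower calls under 8-fold included abundant transcripts. The most abundant locus called with 6 pools had 1657, 1398 and 1723 CPM in isolated pools and 705, 907 and 788 CPM in brother pools. Its log2 fold change was -0.99 with an SE of 0.13 (edgeR adjusted p = 0.0444), and it was -0.91 without brother pool 1 (edgeR adjusted p = 0.00242). The next in abundance had 297, 269 and 282 CPM in isolated pools against 189, 193 and 171 CPM in brother pools, and its log2 fold change was -0.61 with an SE of 0.08 (edgeR adjusted p = 0.0415), or -0.63 without brother pool 1 (edgeR adjusted p = 0.00291). In neither locus did the groups overlap. The 11 lower loci under 8-fold, summed, ranged from 1929 to 2321 CPM by isolated pool, from 1055 to 1268 CPM by brother pool and from 1425 to 1522 CPM by unrelated pool, sums in which the most abundant locus has the main part.

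Among the 61 loci, 3 rose. The level of XLOC_006735 was 7.79, 6.85 and 7.79 CPM in isolated pools, and it was 17.4, 16.4 and 16.3 CPM in brother pools. The brother pools lay close together and well above the isolated pools, and the log2 fold change was 1.16 with an SE of 0.11 (edgeR adjusted p = 0.0168), where it was 1.14 ± 0.11 (edgeR adjusted p = 0.000816) without brother pool 1. XLOC_005778 stood at 13.1, 13.9 and 14.3 CPM in isolated pools and at 32.1, 29.7 and 26.3 CPM in brother pools. Its groups did not overlap either, as the choice of both loci required. The log2 fold change of XLOC_005778 was 1.09 ± 0.10 (SE; edgeR adjusted p = 0.0168), or 1.02 ± 0.09 (edgeR adjusted p = 0.000612) without brother pool 1. The other higher locus had 31.0, 32.2 and 28.8 CPM in isolated and 53.9, 46.7 and 46.4 CPM in brother pools, and rose by 0.67 ± 0.09 in log2 terms (SE; edgeR adjusted p = 0.0469), or by 0.60 without brother pool 1 (edgeR adjusted p = 0.00292). XLOC_006735 was at 12.7, 10.5 and 11.1 CPM and XLOC_005778 at 18.7, 17.5 and 22.3 CPM in unrelated pools 1 to 3, in each case above all isolated and below all brother pools.

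Under the 19 alternatives on the 6 pools both loci kept their direction. XLOC_006735 lost its call in 6 of them (edgeR, limma and DESeq2 adjusted p from 1.62e-22 to 0.286). The edgeR adjusted p of XLOC_006735 was 0.157, 0.118 and 0.145 without isolated pools 1, 2 and 3, and 0.101 without brother pool 3. XLOC_005778 lost its call in 7 (edgeR, limma and DESeq2 adjusted p from 3.31e-17 to 0.286). The edgeR adjusted p of XLOC_005778 was 0.172, 0.118 and 0.145 without isolated pools 1, 2 and 3, and 0.0615 without brother pool 3. When brother pool 1 was left out, XLOC_006735, XLOC_005778, XLOC_010657 and XLOC_007917 passed the threshold under all 17 alternatives tried.

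**Figure D3:**
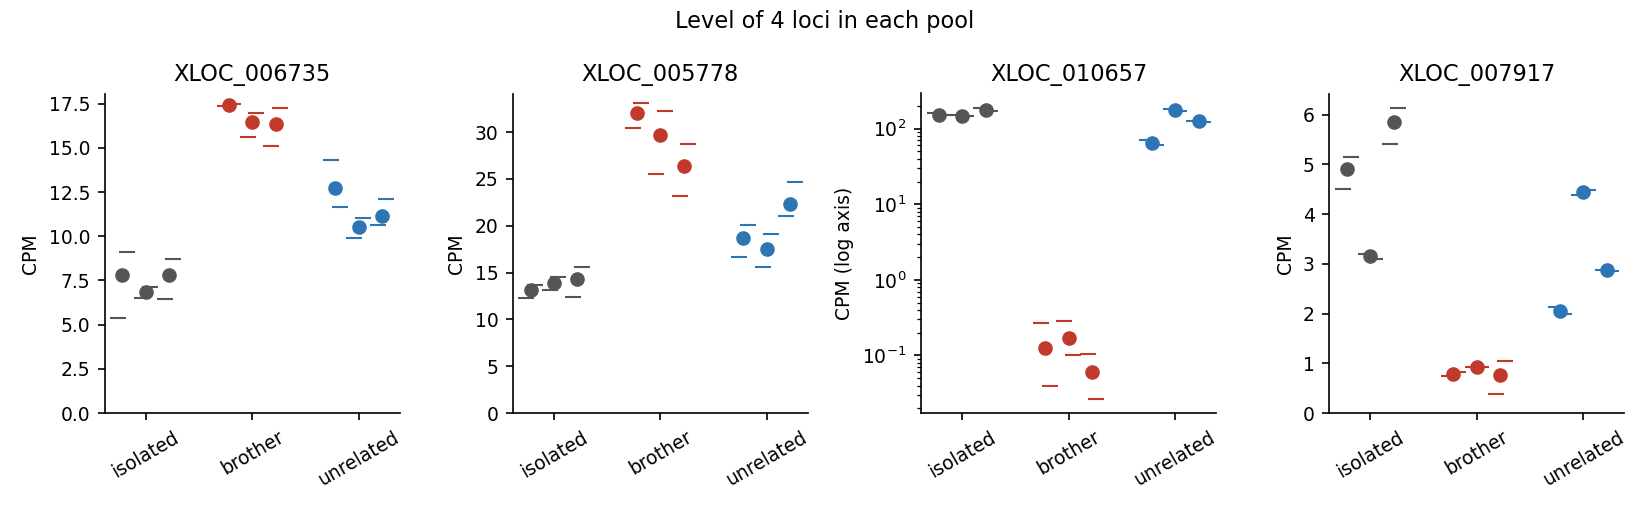
Level in CPM of XLOC_006735, XLOC_005778, XLOC_010657 and XLOC_007917 (vertical axis, a log axis for XLOC_010657) in isolated, brother and unrelated pools. Each dot is a pool, ordered 1 to 3 from left to right, and the dashes beside it are its first (left) and second (right) technical replicate. In all 4 panels the brother pools are clear of the isolated pools, which the rule that chose these loci required. For XLOC_010657 they lie at 0.0606 to 0.17 against 149 to 177 CPM.

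Technical replicates carried different run and lane names in the labels, and each run held all 6 pools. The log2 fold change of XLOC_006735 was 1.39 in the first run and 1.05 in the second. For XLOC_005778 it was 1.06 and 1.10, and for XLOC_007917 it was -2.67 and -2.36. The runs differed most for XLOC_010657 among the 4 named loci, at -9.55 and -11.39, where the brother pools held 18 and 7 counts in all. Over the 14 called loci under 8-fold, the change differed between runs by a median of 0.0632 and at most 0.574 on the log2 scale. The first run alone, the shallower one in every pool, called 18 loci and the second alone called 47, and without brother pool 1 the runs called 1245 and 1531. The runs share their RNA, so they measure technical error and not the spread between pools.

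Without brother pool 1, most calls were small changes. Of the 849 higher loci, 580 rose by under 1.5-fold, 139 by 1.5- to 2-fold, 121 by 2- to 8-fold and 9 by over 8-fold, and their median change was 0.44 on the log2 scale. Of the 996 lower loci, 415 fell by under 1.5-fold, 197 by 1.5- to 2-fold, 276 by 2- to 8-fold and 108 by over 8-fold, with a median of -0.73. Over all 15260 loci the median was -0.005. The smallest changes called were 0.22 higher and 0.23 lower on the log2 scale, whereas with 6 pools they were 0.67 and 0.61. The median standard error of a log2 fold change was 0.15 without brother pool 1 and 0.22 with it.

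Direction varied with abundance in this fit. Among the 4354 loci with a mean under 1 CPM, 46 were called higher and 217 lower. From 1 to 10 CPM, 124 of 3778 were higher and 280 lower, and from 10 to 100 CPM, 359 of 5087 were higher and 424 lower. Over 100 CPM, 320 of 2041 loci were called higher (15.7%) and 75 lower (3.67%). That excess of higher calls depended on the scaling of library sizes, since RLE and upper-quartile scaling gave 339 against 70 and 289 against 81, while unscaled library sizes gave 152 higher against 183 lower. With all 6 pools, 2 of 2069 loci over 100 CPM and 32 of 4130 under 1 CPM were called, all lower. Unscaled library sizes also moved the whole split from 849 higher and 996 lower to 450 higher and 1675 lower without brother pool 1. The 842 higher loci that were also tested with 6 pools made up 13.0% to 13.7% of scaled counts in isolated pools. They made up 18.0% and 18.1% in brother pools 2 and 3, and 13.4% in brother pool 1. The 990 such lower loci made up 3.975% to 4.238% in isolated pools. In brother pools 2 and 3 they made up 2.977% and 2.888%, and in brother pool 1 3.44%. Brother pools 2 and 3 helped to choose both sets.

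Brother pool 1 took no part in these calls, and its values at the called loci stand beside those of the pools that made them, with the isolated pools shared by all. At the 842 higher loci the median log2 difference from the isolated mean was 0.06 in brother pool 1, against 0.42 and 0.45 in brother pools 2 and 3. At the 123 of these over 2-fold higher it was 0.28 in brother pool 1 (quartiles -0.52 and 1.05), against 1.32 and 1.29. At the 612 loci called lower by under 2-fold it was -0.24 in brother pool 1, against -0.46 and -0.50. At the 276 loci called lower by 2- to 8-fold it was -0.05 in brother pool 1 (quartiles -0.85 and 0.61), against -1.58 and -1.57. At the 102 loci called lower by over 8-fold and tested with 6 pools it was -3.43 in brother pool 1, against -3.71 and -3.81. Over all 15214 loci the medians of brother pools 1 to 3 were -0.02, -0.006 and -0.006. At the 102 loci brother pool 1 lay far below the isolated mean, as its group did. The prior count of 2 added before the log draws such low values together. At the 842 higher loci and the 276 lower loci its median lay near the isolated mean, with quartiles on both sides of it.

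**Figure D4:**
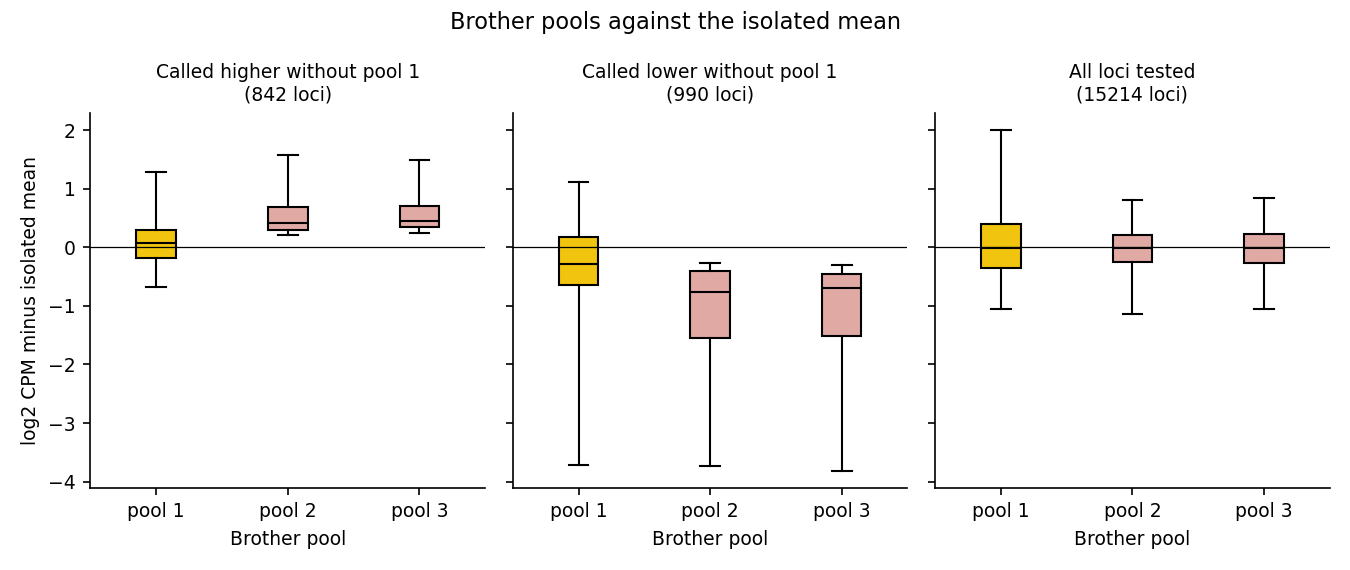
Log2 CPM of each brother pool minus the mean of the isolated pools (vertical axis) at the 842 loci called higher and the 990 called lower without brother pool 1, and at all 15214 loci tested, by brother pool (horizontal axis). Boxes span the quartiles with the median as a line, whiskers run from the 5th to the 95th percentile, and brother pool 1 is in yellow. Pool 1 has a median of 0.06 at the higher loci and -0.28 at the lower loci, nearer to 0 than pools 2 and 3, and the widest box over all loci.

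Brother pool 1 was also high at most of the loci with a large rise. With 6 pools 957 loci were over 2-fold higher in brother than in isolated pools, and 2 of them were called. In 686 of the 957, or 71.7%, brother pool 1 lay over 2-fold above both other brother pools, and 250 stayed over 2-fold higher without it. Brother pool 1 entered the fold changes that chose the 957, so its high level there is a description. Of 408 loci over 2-fold lower, 53 were called, and 345 stayed over 2-fold lower without brother pool 1. Counted by overlap of the pools, all 3 brother pools lay above all 3 isolated pools at 1479 loci (9.72% of those tested), of which 3 were called with 6 pools. They lay below at 2074 loci (13.6%), of which 58 were called. The percentages called with 6 pools were 0.0197% and 0.381%, and the separated loci had median log2 fold changes of 0.34 and -0.41.

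The number of calls varied with the pool left out in both fits, each time with fewer pools to estimate the spread. From 61 with 6 pools, it fell to 4 without isolated pool 1, 2 or 3, to 34 without brother pool 2 and to 10 without brother pool 3. Left out in turn, the pools shared 4 calls, all over 8-fold lower, and XLOC_010657 was among these. From 1845 without brother pool 1, the number was 966 without isolated pool 1, 1831 without isolated pool 2 and 491 without isolated pool 3. It was 1057 without brother pool 2 and 738 without brother pool 3, where the lone brother pool was assumed to vary like the isolated pools. In this second series 410 loci, 158 higher and 252 lower, were called whichever pool was left out. They included 60 of the 61 loci called with 6 pools and all 47 of the near-absent ones.

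**Figure D5:**
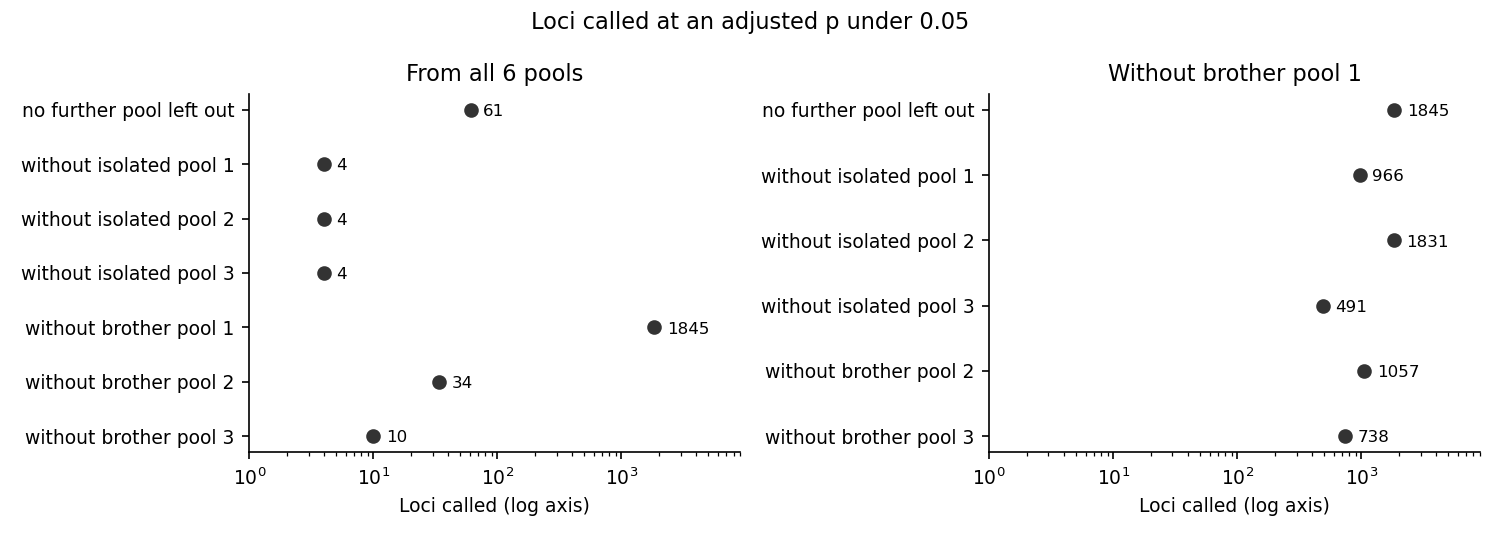
Number of loci called at an adjusted p under 0.05 (horizontal log axis) with no further pool left out and without each pool in turn (vertical axis), starting from all 6 pools (left) and from the 5 pools without brother pool 1 (right). From 6 pools the number ranges from 4 to 1845, and from the 5 pools from 491 to 1845.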

How the data were processed

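The authors deposited raw counts per XLOC locus, 1 column per library, for 16752 loci. Trimmomatic 0.36, TopHat, Cufflinks and HTSeq are named, per the submitters' processing notes, without roles. No source used here gives the genome build, the annotation or the strand setting. Polyadenylated RNA was read as stranded 125 bp pairs, per the labels' protocols. Reads shared between overlapping or near-identical loci cannot be told apart.

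Technical replicates were summed. Loci passing filterByExpr were scaled by TMM and tested in edgeR 4.0.16 (R 4.3.3; glmQLFit and glmQLFTest) on brother and isolated pools, with Benjamini-Hochberg adjustment over all loci tested and a threshold of 0.05. Filtered loci held at most 0.0381% of a pool's counts. A standard error is the size of a log2 fold change over the root of its F statistic. CPM uses TMM-scaled library sizes, and unrelated pools were put on that scale through the same reference pool. A floor of 3 counts was 0.0341 to 0.0488 CPM. Intervals and floors cover counting error only, since the reads carry no molecular identifiers and PCR copies are counted. Log2 CPM for single pools used a prior count of 2. DESeq2 1.42.0 and limma 3.58.1 served as alternatives. The fits were also run on counts simulated with their own dispersions. Those counts hold no pool that stands apart, so they cannot show how the fits behave with such a pool.

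The named loci had to be called with 6 pools and without brother pool 1, in the same direction, with pools that did not overlap. Among these, the 2 higher loci had the smallest adjusted p (the larger of the 2 fits), and the lower loci were the most abundant one over 8-fold lower and the one under 8-fold with the smallest adjusted p. Other loci described by level were chosen after their values were seen. The comparison, its pools and the rules were chosen with earlier results of these data known.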

Additional observations from a re-analysis of the deposited data

How the results depend on the processing

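With all 6 pools the main count was 61 loci (3 higher, 58 lower), whereas DESeq2 called 962 (423 higher, 539 lower). Limma-voom with sample quality weights, with a weight of 0.14 for brother pool 1, called 2994 (1387 higher, 1607 lower). Higher loci made up 44% and 46.3% of the calls in these fits, against 4.92% in the main fit. The filter of 1 CPM in 3 pools called 29, glmTreat with a minimum change of 1.5-fold 40, and the first technical replicate alone 18. Without brother pool 1, where the main count was 1845, glmTreat called 188. The cause of these shifts was not tested. RLE, upper-quartile and unscaled library sizes, limma-voom, a robust fit, no filter and the second technical replicate alone kept both counts within 1.5 times. So did DESeq2, the 1 CPM filter and the first technical replicate for the count without brother pool 1. Leaving out single pools gave 4 to 1845 calls from 6 pools and 491 to 1831 from 5. A replicate block added to the fits left 2 calls from 6 pools and 754 from 5. Deviations of same-numbered isolated and brother pools from their group means correlated at -0.256, -0.315 and 0.072. For differently numbered pools the correlations ran from -0.23 to 0.359. With 3 pools a group such deviations depend on each other, so these values cannot decide on pairing. The pools were treated as unpaired. The 4 named loci kept their direction under every alternative run. Loci under 1 CPM had a median standard error of 0.462 on the log2 scale without brother pool 1, against 0.0721 over 100 CPM. How much of this is counting error was not tested.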

Other observations

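Few reads of the near-absent loci remained in brother pools, and their number differed between runs. XLOC_010657 had 18 counts in the brother pools of the first run and 7 in the deeper second run, while the isolated pools had 15163 and 20572. Over the 47 loci called over 8-fold lower with 6 pools, the brother pools had 381 counts in the first run and 418 in the second, at 1.27% and 0.96% of the isolated level. Whether the remaining counts come from the females' own RNA was not tested.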
